A study of Drosophila melanogaster with 24 samples.

Results

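Head RNA of 2 genotypes of adult female Drosophila melanogaster was compared directly: heads in which neurons made a FLAG-tagged Nab2 (elav>Nab2-FLAG) and heads in which neurons made Atx2 with a triple FLAG tag (elav>Atx2-3xFLAG). The comparison used the Input libraries, made from the lysate before anti-FLAG immunoprecipitation, with 4 libraries in each group, so 8 of the 24 libraries of the series. Both genotypes carried the elav>Gal4 driver, in which regulatory sequence of the neuronal gene elav switches on the yeast activator Gal4 and, through it, the transgene. The control genotype carried elav>Gal4 alone and is shown only for reference. Each of the 12 lysates of the series came from 300 pooled, formaldehyde-fixed heads, of which 20% of the soluble fraction was kept as Input and 80% went on to RNA immunoprecipitation (RIP). The age of the flies and the genetic background of the stocks are not given in the sources used here, and exoskeletal debris and the insoluble fraction were removed before Input was taken. Transgene expression is limited to cells in which the driver works, whereas the Input holds RNA of every cell type of the head.

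Nab2 is a zinc finger protein that binds polyadenosine RNA and is known for roles in poly(A) tail length and in the export and splicing of messenger RNA; its human counterpart ZC3H14 is linked to intellectual disability. Atx2, the fly ataxin-2, is a mostly cytoplasmic protein that binds poly(A)-binding protein and regulates translation, and it is known in flies for its part in circadian translation of period. Input RNA measures neither binding nor translation, but the steady amount of each transcript, from which the bound RNA was drawn.

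Depth was 511415 to 1079829 counts per library in Nab2-FLAG Input and 601479 to 1091678 in Atx2-3xFLAG Input. Mitochondrially encoded genes took 24.8% to 32.7% of the counts in Nab2-FLAG and 26.2% to 33.0% in Atx2-3xFLAG. Levels are given as CPM, the count relative to library size, after TMM scaling, in the order of replicates 1 to 4, and differences as log2 of Nab2-FLAG over Atx2-3xFLAG with the standard error (SE). Replicate 4 of each genotype lay farthest from the other 3 of its group: the SD over 2046 genes of the log2 deviation from the other 3 was 0.336 in Nab2-FLAG replicate 4 and 0.296 in Atx2-3xFLAG replicate 4, against 0.203 to 0.254 in the other 6 libraries. Counts are therefore also given without replicate 4 of both genotypes. Head tissue was recognisable from its markers, with all 24 neuron and all 21 photoreceptor genes of the lists above the expression filter. Of 23 ovary and eggshell genes, 0 were above it. All gene lists, here and below, were chosen with earlier results of these data known. The share of a list that was called, set beside the share over all genes, is therefore a description and no test of the list.

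The genes of the transgenes were examined first. Nab2 (FBgn0028471, chromosome arm 3R, 24314660 to 24318419) had 98, 98.2, 83 and 142 CPM in the Nab2-FLAG libraries and 25.5, 12.7, 21.3 and 17.1 CPM in the Atx2-3xFLAG libraries. All Nab2-FLAG libraries lay above all Atx2-3xFLAG libraries, and control heads, with 21.4 ± 4.05 CPM (SD, n = 4), were at the level of Atx2-3xFLAG. The log2 difference was 2.35 ± 0.19 (SE), a 5.11-fold higher level (edgeR quasi-likelihood F test, Benjamini-Hochberg adjusted p = 3.08e-14). The deposited counts do not separate reads of the transgene from reads of the native gene. Atx2 (FBgn0041188, 3R, 15408423 to 15417277) had 185, 207, 183 and 165 CPM in Nab2-FLAG and 214, 254, 239 and 239 CPM in Atx2-3xFLAG. The groups did not overlap, but the control, at 224 ± 18.4 CPM (SD, n = 4), overlapped Atx2-3xFLAG, so that the level of its own gene does not check the Atx2-3xFLAG label. The log2 difference of -0.34 ± 0.11 (SE) just passed the threshold (edgeR adjusted p = 0.0496). It was lost with DESeq2 (adjusted p = 0.131) and on leaving out any single library other than Atx2-3xFLAG replicate 1 (edgeR adjusted p between 0.0523 and 0.134). The gene of the driver, elav, had 102 to 118 CPM in Nab2-FLAG and 109 to 135 CPM in Atx2-3xFLAG, with a log2 difference of -0.17 and no call (edgeR adjusted p = 0.524).

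Across the transcriptome, 354 of 5207 tested genes (6.80%) differed between the genotypes at an adjusted p under 0.05 in edgeR's quasi-likelihood F test. Of these, 218 were higher in Nab2-FLAG (4.19%) and 136 were lower (2.61%). Most differences were modest: the median log2 difference was 0.63 among the higher and -0.60 among the lower genes, and 45 higher and 29 lower genes exceeded a log2 difference of 1. A log2 difference of 2 was exceeded by 8 higher and 5 lower genes. At an unadjusted p under 0.05 there were 973 genes. The 4 Nab2-FLAG values lay all above or all below the 4 Atx2-3xFLAG values in 543 genes (10.4%), of which 273 were called, while 81 called genes had overlapping groups. Without replicate 4 of both genotypes, 247 genes were higher and 174 lower, and 299 of the 354 genes were among them. DESeq2 called 202 genes, 127 higher and 75 lower. The balance of directions depended on scaling: with library size as the only scaling, 121 genes were higher and 164 lower, and the median of all genes moved from 0.00 to -0.08.

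**Figure D1:**
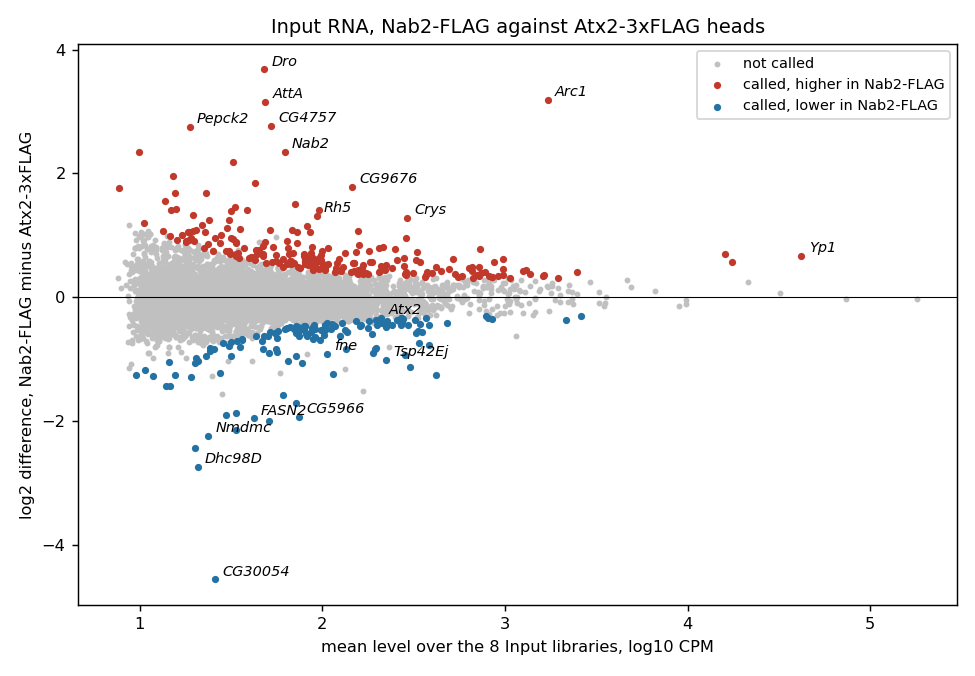
Log2 difference of Nab2-FLAG minus Atx2-3xFLAG Input (vertical axis) against the mean level over the 8 Input libraries in log10 CPM (horizontal axis). Each point is 1 of 5207 tested genes; red points are the 218 called higher, blue points the 136 called lower and grey points the genes not called, and a few named genes are marked.

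The 12 largest differences in each direction, named here and below, were taken only from called genes whose groups did not overlap. Separate groups in these genes are therefore a condition of naming and no added support. Arc1 was the most abundant of the genes with a large difference. Arc1 (FBgn0033926, 2R, 14357927 to 14360297), a homologue of the synaptic gene Arc whose protein forms capsid-like particles, had 3420, 3330, 2950 and 2650 CPM in Nab2-FLAG and 408, 330, 221 and 397 CPM in Atx2-3xFLAG. Every Nab2-FLAG library was several times above every Atx2-3xFLAG library, and the control, at 473 ± 178 CPM (SD, n = 4), was close to Atx2-3xFLAG. The log2 difference was 3.19 ± 0.18 (SE), or 9.11-fold (edgeR adjusted p = 3.39e-07). Pepck2, a phosphoenolpyruvate carboxykinase of gluconeogenesis, had 31, 36, 26 and 38.5 CPM in Nab2-FLAG and 5.95, 6.34, 3.55 and 3.43 CPM in Atx2-3xFLAG (log2 2.75 ± 0.32 SE, edgeR adjusted p = 4.53e-09). CG4757, a predicted carboxylesterase, had 81.5, 82, 105 and 96.3 CPM against 15.3, 20.6, 11.5 and 6.85 CPM (log2 2.77 ± 0.21 SE, edgeR adjusted p = 4.08e-15). Pepck2 had 3 to 7 counts per library in Atx2-3xFLAG, so its log2 difference rests on few counts there. For Pepck2 and CG4757 the groups were far apart. All control libraries lay between them for CG4757 (32.4 to 64.7 CPM), and 3 of the 4 did for Pepck2 (12.4 to 28.5 CPM).

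CG9676 and CG32523, both predicted serine proteases, were also higher. CG9676 had 262, 244, 240 and 151 CPM in Nab2-FLAG and 76.6, 63.4, 55.9 and 67.4 CPM in Atx2-3xFLAG (log2 1.78 ± 0.14 SE, edgeR adjusted p = 3.28e-13). CG32523 had 47.5 to 63.2 CPM against 6.34 to 16.2 CPM (log2 2.19, edgeR adjusted p = 8.9e-10). Both genes share their span with another annotated gene, so their counts are uncertain. That neither pair of groups overlapped was a condition for naming them. A further 2 genes were chosen after their values were seen. Iml1, a subunit of the GATOR1 complex that restrains TORC1, had 138, 130, 150 and 138 CPM against 45.1, 72.9, 47 and 50.2 CPM (log2 1.41 ± 0.15 SE, edgeR adjusted p = 1.17e-10). Inos, the enzyme that makes inositol phosphate from glucose phosphate, had 343 to 411 CPM against 160 to 236 CPM (log2 0.95, edgeR adjusted p = 4.72e-09).

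Several peptide effectors of innate immunity were among the higher genes. In flies, the antimicrobial peptides drosocin, the attacins and the diptericins are made mostly in the fat body and released into the hemolymph after bacterial peptidoglycan activates the Imd pathway. Of 48 genes of a list of antimicrobial and immune effectors, 19 passed the expression filter; 10 were higher in Nab2-FLAG (52.6%, against 4.19% over all genes), 0 were lower and 9 were not called. Of the 19, 18 had a positive difference (median log2 0.63, against -0.00 over all tested genes). The filter asks for about 10 counts in as many libraries as 1 group holds. Genes low in Atx2-3xFLAG, such as Dro (1 to 13 counts) and DptB (3 to 10 counts), passed it through Nab2-FLAG. The filter thus has a part in this share and these signs. Dro (FBgn0010388), which encodes drosocin, had 69.8, 100, 96.7 and 91 CPM in Nab2-FLAG and 5.1, 1.59, 5.33 and 14.8 CPM in Atx2-3xFLAG. The highest Atx2-3xFLAG library, replicate 4, was still far below the lowest Nab2-FLAG library. The log2 difference of Dro was 3.68 ± 0.26 (SE), a 12.8-fold difference (edgeR adjusted p = 4.08e-15). AttA had 68.9, 106, 76.8 and 99.8 CPM against 5.95, 6.34, 9.77 and 17.1 CPM (log2 3.15 ± 0.23 SE, edgeR adjusted p = 4.08e-15). AttB had 49.5, 92.8, 59.5 and 64.8 CPM against 10.2, 19, 11.5 and 37.7 CPM (log2 1.85 ± 0.38 SE, edgeR adjusted p = 0.0168). AttA and AttB are near-identical neighbours, so reads may have been split between them and each value is uncertain on its own. Without Atx2-3xFLAG replicate 2 the AttB call was lost (edgeR adjusted p = 0.0643).

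The diptericins DptA and DptB followed the same direction. DptA had 25.2, 45.1, 29.7 and 40.3 CPM in Nab2-FLAG and 7.66, 4.76, 6.21 and 25.1 CPM in Atx2-3xFLAG (log2 1.68 ± 0.35 SE, edgeR adjusted p = 0.00275). Its Atx2-3xFLAG replicate 4 came close to the lowest Nab2-FLAG library, and with all 12 Input libraries in the fit its adjusted p was 0.0888. DptB had 20.4, 35.1, 18.6 and 22.8 CPM against 4.25, 4.76, 8.88 and 6.85 CPM (log2 1.95 ± 0.33 SE, edgeR adjusted p = 2.7e-05). Dro, AttA and AttB are adjacent on 2R (14745961 to 14750165), and Jheh3, DptA and DptB form a second run of adjacent genes called higher (2R, 18860375 to 18867895). IM1 belongs to the Bomanin family of immune-induced peptides, which depend on the Toll pathway. It had 34.9, 46.9, 55.8 and 45.5 CPM against 11.9, 17.4, 15.1 and 26.3 CPM (log2 1.39, edgeR adjusted p = 2.31e-05). IM3, IM4 and IM33 were also higher, by a log2 of 0.62, 0.81 and 0.55, as was the thioester protein gene Tep4 (log2 0.61, edgeR adjusted p = 0.000186). These 5 genes were chosen after their values were seen, and the call of IM33 was lost without any of 4 single libraries, Nab2-FLAG replicates 1 and 2 and Atx2-3xFLAG replicates 2 and 4 (edgeR adjusted p between 0.0581 and 0.246).

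Of the antimicrobial peptide genes that were not called, Mtk and AttC had Atx2-3xFLAG replicate 4 above or within the Nab2-FLAG range. Mtk, which encodes the antifungal metchnikowin, had 21.3, 29.7, 21.1 and 28 CPM in Nab2-FLAG and 10.2, 11.1, 8.88 and 30.8 CPM in Atx2-3xFLAG (edgeR adjusted p = 0.146). AttC had 38.4 to 84.7 CPM against 28.1, 9.51, 22.2 and 67.4 CPM (edgeR adjusted p = 0.439). Without replicate 4 of both genotypes, 12 of the 19 genes were called higher, AttC and Mtk among them (edgeR adjusted p = 0.00426 and 0.00528). In the control, Dro ranged from 4.42 to 18.7 CPM and AttA from 10.3 to 37.3 CPM, below every Nab2-FLAG library. IM4, by contrast, was as high in the control (131 to 178 CPM) as in Nab2-FLAG (102 to 120 CPM).

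**Figure D2:**
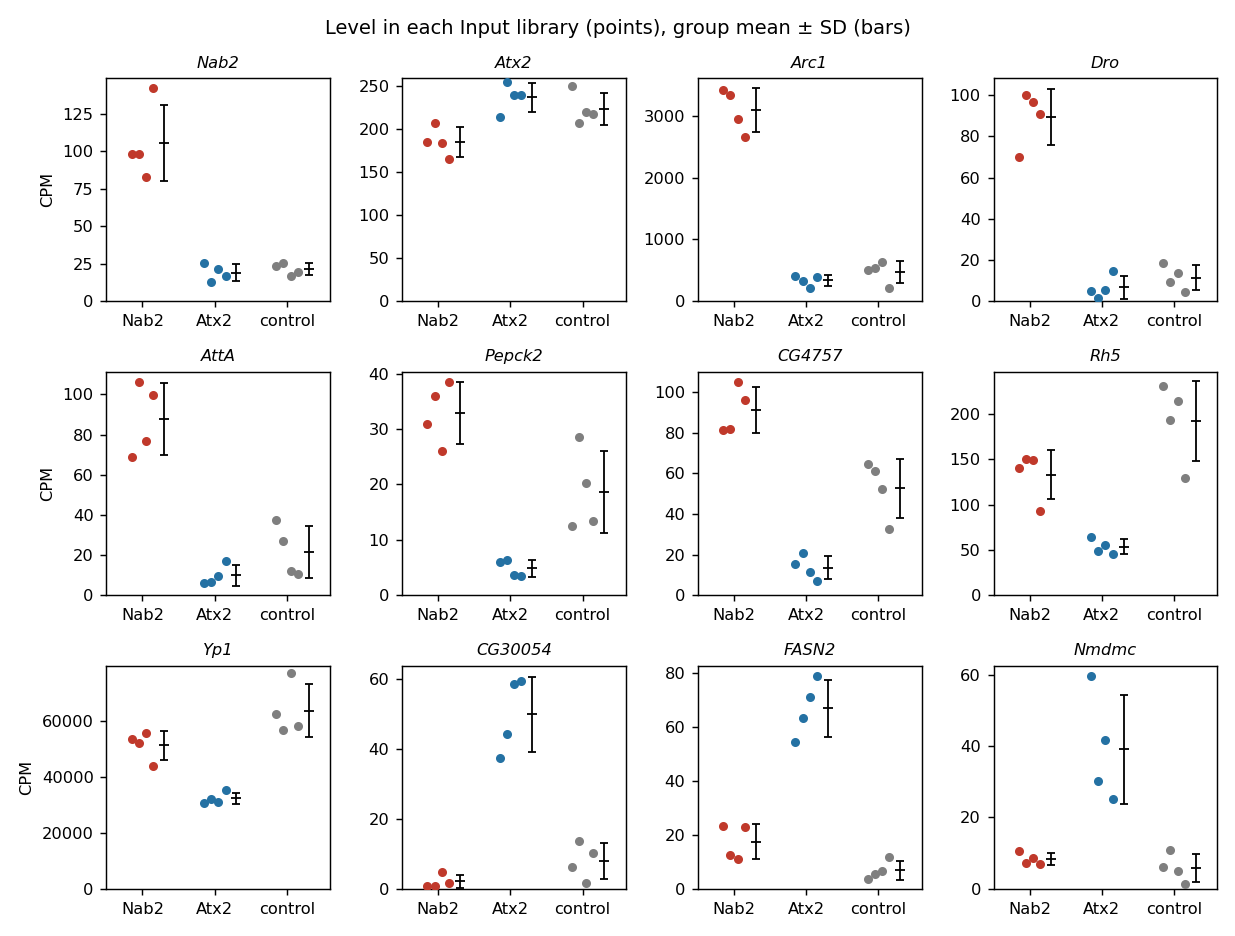
TMM-scaled CPM of 12 genes in the Input libraries; each point is 1 library of Nab2-FLAG (red), Atx2-3xFLAG (blue) or the control (grey), and bars give the group mean ± SD (n = 4). Arc1, Dro and AttA are highest in the 4 Nab2-FLAG libraries, CG30054, FASN2 and Nmdmc in the 4 Atx2-3xFLAG libraries, and Rh5 and Yp1 are lowest in Atx2-3xFLAG.

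Genes lower in Nab2-FLAG, and so higher in Atx2-3xFLAG, were led by CG30054, a predicted G protein alpha subunit related to Galphaq. CG30054 (FBgn0050054, 2R, 12623726 to 12625352) had 0.97, 0.901, 4.96 and 1.75 CPM in Nab2-FLAG, from 1 to 4 counts per library, and 37.4, 44.4, 58.6 and 59.4 CPM in Atx2-3xFLAG. The Nab2-FLAG libraries were close to zero and the fitted log2 difference of -4.56 ± 0.37 (SE) rests on these few counts (edgeR adjusted p = 2.47e-14). Control libraries had 1.69 to 13.6 CPM and also lay below every Atx2-3xFLAG library. Dhc98D, a dynein heavy chain, had 3.88, 4.51, 7.44 and 5.25 CPM in Nab2-FLAG and 24.7, 50.7, 35.5 and 34.3 CPM in Atx2-3xFLAG (log2 -2.74 ± 0.33 SE, edgeR adjusted p = 6.46e-09). The control, at 1.47 to 5.42 CPM, was again on the side of Nab2-FLAG. Rgk2, a small GTPase of the RGK family known in vertebrates for inhibiting voltage-gated calcium channels, had 3.5 to 9.7 CPM against 32.8 to 38 CPM (log2 -2.44, edgeR adjusted p = 2.32e-08). These differences also rest on few counts in the Nab2-FLAG libraries, 3 to 6 for Dhc98D and 2 to 10 for Rgk2. CG10383 had 13.6 to 15.5 CPM against 33.1 to 82.5 CPM (log2 -1.88, edgeR adjusted p = 1.04e-06).

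The lower genes also held enzymes of fatty acid and triglyceride handling, although FASN1 and Lsd-1 were higher. FASN2, a fatty acid synthase, had 23.3, 12.6, 11.2 and 22.8 CPM in Nab2-FLAG and 54.4, 63.4, 71 and 78.8 CPM in Atx2-3xFLAG (log2 -1.96 ± 0.22 SE, edgeR adjusted p = 9.05e-10). bmm, the triglyceride lipase brummer, had 66, 41.4, 42.1 and 54.3 CPM against 121, 82.4, 104 and 112 CPM (log2 -1.06 ± 0.16 SE, edgeR adjusted p = 1.23e-06). The groups did not overlap for either gene, and control libraries had 3.73 to 11.8 CPM of FASN2 and 43.5 to 63.4 CPM of bmm. CG5966, a predicted lipase, had 28.1, 32.4, 32.2 and 31.5 CPM against 132, 138, 141 and 61.7 CPM (log2 -1.93 ± 0.23 SE, edgeR adjusted p = 8.96e-06). hll, an acyl-CoA synthetase, had 7.76, 15.3, 19.8 and 5.25 CPM against 80.8, 68.2, 46.2 and 26.3 CPM (log2 -2.14 ± 0.44 SE, edgeR adjusted p = 0.0194). In Nab2-FLAG, hll had 3 to 17 counts per library. The call of hll was lost without Nab2-FLAG replicate 1 or 2 (edgeR adjusted p of 0.0737 and 0.0739). Achl, a clock-controlled gene linked in flies to immune gene expression in the head, had 30.1, 24.3, 23.5 and 50.8 CPM against 111, 66.6, 97.7 and 82.2 CPM (log2 -1.58, edgeR adjusted p = 3.38e-08). The control, at 72.7 to 112 CPM, matched Atx2-3xFLAG in this gene.

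Folate-dependent one-carbon metabolism and purine synthesis stood out among the lower genes, and a list for it was drawn up after those values were seen. These pathways move single carbon units between serine, glycine, sarcosine and folate and spend them on the purine ring. Of 14 tested genes, 6 were lower in Nab2-FLAG and 1 was higher (median log2 -0.78), against 6.80% called over all genes, and the choice of the list after the fact fixes this share. Nmdmc, the mitochondrial methylenetetrahydrofolate dehydrogenase, had 10.7, 7.21, 8.67 and 7 CPM in Nab2-FLAG and 59.5, 30.1, 41.7 and 25.1 CPM in Atx2-3xFLAG (log2 -2.24 ± 0.29 SE, edgeR adjusted p = 9.18e-08). Sardh, sarcosine dehydrogenase, had 15.5, 18, 29.7 and 19.3 CPM against 84.2, 99.9, 96.8 and 44.5 CPM (log2 -2.0 ± 0.23 SE, edgeR adjusted p = 4.44e-07). Shmt, serine hydroxymethyltransferase, had 143, 116, 135 and 135 CPM against 300, 239, 281 and 161 CPM (log2 -0.91 ± 0.14 SE, edgeR adjusted p = 9.36e-05). In all 3 genes the groups were separate, and Atx2-3xFLAG replicate 4 was the library nearest to Nab2-FLAG. The exception in direction was Gnmt, glycine N-methyltransferase, which makes sarcosine, at 36.9, 39.6, 48.3 and 71.8 CPM against 13.6, 15.9, 23.1 and 35.4 CPM (log2 1.10 ± 0.25 SE, edgeR adjusted p = 0.00305).

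In further genes of the list, replicate 4 of Atx2-3xFLAG was set apart from the other 3. Gart, which catalyses several steps of purine synthesis, had 189, 166, 169 and 238 CPM in Nab2-FLAG and 493, 434, 472 and 247 CPM in Atx2-3xFLAG (log2 -1.13, edgeR adjusted p = 0.0288). CG11089, the bifunctional enzyme of the last purine steps, had 251, 235, 278 and 222 CPM against 806, 582, 647 and 325 CPM (log2 -1.26, edgeR adjusted p = 0.04996). pug, the cytoplasmic trifunctional folate enzyme, had 295, 268, 309 and 275 CPM against 558, 528, 559 and 299 CPM (log2 -0.76, edgeR adjusted p = 0.0119). In each of them 3 Atx2-3xFLAG libraries were well above Nab2-FLAG and replicate 4 lay at or just above the Nab2-FLAG level. Summed over the 14 genes, the Nab2-FLAG libraries had 1847 to 1991 CPM, whereas Atx2-3xFLAG had 3736, 3199 and 3425 CPM in replicates 1 to 3 and 1957 CPM in replicate 4. Without replicate 4 of both genotypes, 9 of the 14 genes were lower, with Pfas, Paics and AdSL added, and the median log2 was -0.95. Leaving out single libraries ended the call of Gart for Nab2-FLAG replicates 1 to 3 and Atx2-3xFLAG replicates 1 to 3 (edgeR adjusted p between 0.0501 and 0.0861), as did library size as the only scaling (0.0556) and the replicate number as a block (0.175). The same held for CG11089 without any Nab2-FLAG library or without Atx2-3xFLAG replicate 2 or 3 (0.102 to 0.142), and for pug without Nab2-FLAG replicate 4 (0.125). Nmdmc, pug, Shmt, Gart, CG11089 and Gnmt each overlap the span of another annotated gene, so a share of their reads may belong to that gene.

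Fat body and yolk genes that passed the test were higher in Nab2-FLAG, apart from FASN2 and bmm above. Fat body is the liver-like and adipose tissue of the fly, part of which lines the head capsule, and in females it makes the yolk proteins. Of 14 tested genes, 7 were higher and 2 lower (median log2 0.35), a share of 64.3% against 6.80% over all genes. The list was chosen with earlier results of these data known, so this share is no test of it. With replicate 4 of both genotypes left out the counts were the same, with Lsd-1 lost (edgeR adjusted p = 0.0754) and apolpp added (0.000942). Yp1, a yolk protein, had 53800, 52200, 55800 and 43900 CPM in Nab2-FLAG and 30700, 32100, 31300 and 35500 CPM in Atx2-3xFLAG. The groups were separate, with a log2 difference of 0.67 ± 0.10 (SE, edgeR adjusted p = 4.87e-06), and the control had 63840 ± 9394 CPM (SD, n = 4), the highest of the genotypes. Its neighbour Yp2 had 20400, 19600, 20400 and 18900 CPM against 11300, 12900, 11900 and 12800 CPM (log2 0.70 ± 0.10 SE, edgeR adjusted p = 4.44e-07). Yp3 had 22400, 22600, 23100 and 15800 CPM against 15900, 15100, 13200 and 12400 CPM, with replicate 4 of Nab2-FLAG inside the Atx2-3xFLAG range (log2 0.57, edgeR adjusted p = 0.000248). The summed level of the list was 89020 to 108700 CPM in Nab2-FLAG and 63430 to 69660 CPM in Atx2-3xFLAG, and the yolk proteins made up most of it. In bulk heads, fewer cells of a type and less RNA per cell cannot be told apart.

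Of the 14 list members, apolpp, Lsp1beta, fat-spondin, NLaz and AkhR were not called. FASN1, the main fatty acid synthase of fat body, had 2780 to 2930 CPM in Nab2-FLAG and 1950 to 2520 CPM in Atx2-3xFLAG (log2 0.41, edgeR adjusted p = 0.00305), in the opposite direction to FASN2. The storage protein gene Lsp2 had 674 to 940 CPM against 544 to 587 CPM (log2 0.42, edgeR adjusted p = 0.00478), and the iron carrier Tsf1 had 506 to 709 CPM against 363 to 495 CPM (log2 0.61, edgeR adjusted p = 3.98e-05). apolpp, the lipophorin precursor, had 4740 to 5790 CPM against 3760 to 4960 CPM and was not called (edgeR adjusted p = 0.0655). Lsd-1, a perilipin, passed narrowly (log2 0.49, edgeR adjusted p = 0.0495), and its call was lost without any single library other than Atx2-3xFLAG replicate 3 (edgeR adjusted p between 0.0528 and 0.235) and with DESeq2 (0.198). fit, a female-specific fat body gene of the head that signals protein satiety, had 91.2, 83.8, 80.5 and 165 CPM against 23.8, 41.2, 29.3 and 52.5 CPM (log2 1.51, edgeR adjusted p = 0.0155, and 0.0645 without Atx2-3xFLAG replicate 3). FASN1, Lsp2, Tsf1, apolpp, Lsd-1 and fit were named after their values were seen. The summed fat body level and the immune effectors were both higher in Nab2-FLAG, and the part of the one in the other was not tested.

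Hemocyte and basement membrane genes, a list made after the values were seen, that passed the test were all higher in Nab2-FLAG. Hemocytes are the blood cells of the fly; they and the fat body secrete collagen IV and other matrix proteins. All 18 tested genes had a positive log2 difference (median 0.55), and 9 of the 18 were called higher, against 4.19% over all genes, and 0 lower. Without replicate 4 of both genotypes 12 were higher. The choice of the list after the fact fixes these shares and signs, which are no test of the list. Hml, hemolectin, had 307, 303, 343 and 301 CPM in Nab2-FLAG and 151, 187, 173 and 225 CPM in Atx2-3xFLAG (log2 0.78 ± 0.11 SE, edgeR adjusted p = 9.66e-07). PPO1, a prophenoloxidase of crystal cells, had 32, 32.4, 38.4 and 31.5 CPM against 13.6, 15.9, 7.1 and 21.7 CPM (log2 1.25 ± 0.26 SE, edgeR adjusted p = 0.00086). NimC1, a phagocytosis receptor of plasmatocytes, had 29.8 to 36 CPM against 9.51 to 28.5 CPM (log2 0.96, edgeR adjusted p = 0.00829). None of these 3 genes had overlapping groups. The collagen IV genes Col4a1 and vkg, which are neighbours on 2L, were higher by a log2 of 0.57 and 0.53, and the matrix genes SPARC, Ppn and Tsp by 0.84, 0.62 and 0.63. In SPARC the Nab2-FLAG libraries had 198, 202, 239 and 177 CPM and the Atx2-3xFLAG libraries 126, 109, 110 and 108 CPM (edgeR adjusted p = 5.96e-07). lz, a transcription factor of crystal cells and of the eye, had a log2 difference of 1.06 (edgeR adjusted p = 0.0113), lost without Nab2-FLAG replicate 1 or Atx2-3xFLAG replicate 1 (0.0554 and 0.0601). The summed level of the list was 3674 to 3992 CPM in Nab2-FLAG, 2395 to 2879 CPM in Atx2-3xFLAG and 3754 to 4217 CPM in the control.

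**Figure D3:**
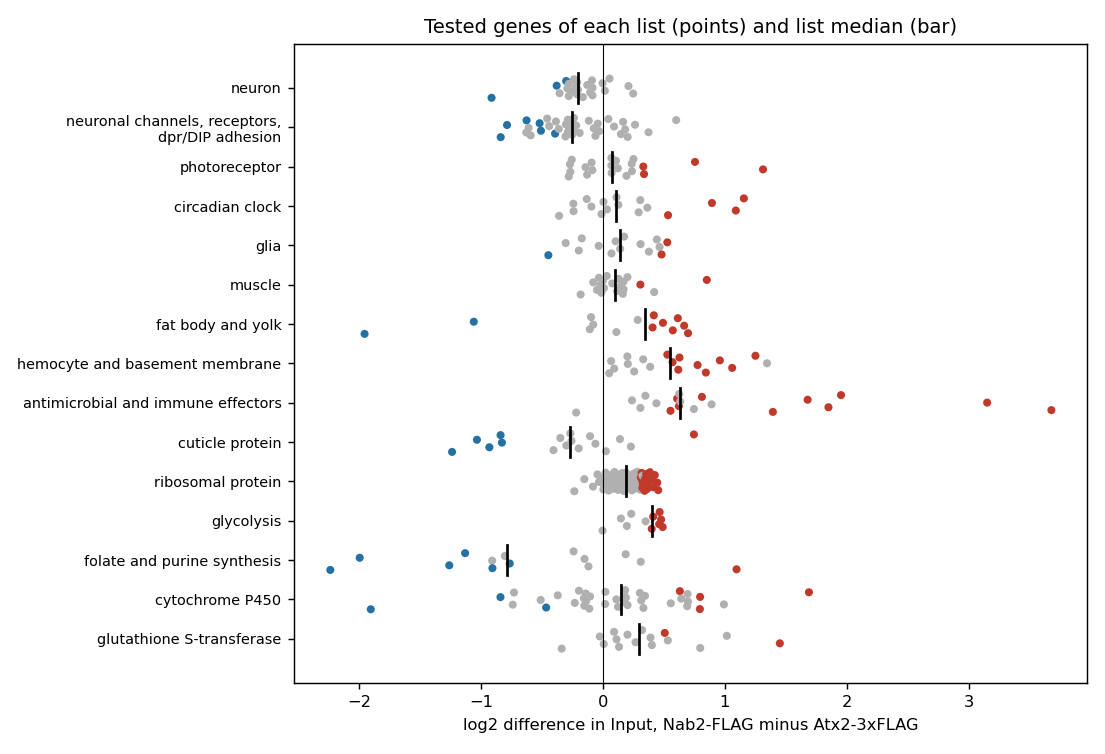
Log2 difference of Nab2-FLAG minus Atx2-3xFLAG Input (horizontal axis) for the tested genes of 15 gene lists (rows); each point is a gene, red if called higher, blue if called lower and grey if not called, and the black bar is the list median. Immune effectors and hemocyte genes lie to the right of zero, with medians of 0.63 and 0.55, and the folate and purine genes mostly to the left, with a median of -0.78. The hemocyte, glycolysis, folate and purine, and neuronal channel lists were drawn up after the values were seen.

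Of 24 neuron markers, 3 were lower in Nab2-FLAG (12.5%, against 2.61% over all genes) and 0 higher, and 20 had a negative difference (median log2 -0.21, and -0.28 with library size as the only scaling). fne, an RNA-binding protein of the ELAV family found in neurons, had 78.6, 80.2, 68.2 and 68.3 CPM in Nab2-FLAG and 191, 120, 105 and 140 CPM in Atx2-3xFLAG. The groups were separate, the control (58.5 to 87 CPM) lay at the Nab2-FLAG level, and the log2 difference was -0.91 ± 0.15 (SE, edgeR adjusted p = 3.24e-05). VAChT, the vesicular acetylcholine transporter, had 108 to 154 CPM against 156 to 189 CPM (log2 -0.38, edgeR adjusted p = 0.0464). Its span overlaps that of ChAT, so its reads cannot be assigned with certainty. futsch, a microtubule-associated protein of axons, had 662 to 776 CPM against 824 to 940 CPM (log2 -0.30, edgeR adjusted p = 0.0407). The call of VAChT was lost without Nab2-FLAG replicate 2 or 3 or Atx2-3xFLAG replicate 1 or 2 (edgeR adjusted p between 0.107 and 0.246). That of futsch was lost without Nab2-FLAG replicate 1 or 3 or Atx2-3xFLAG replicate 1, 2 or 3 (0.0595 to 0.137). The synaptic vesicle genes nSyb and Syt1 and the active zone gene brp had log2 differences of -0.28, -0.21 and -0.28 and were not called. The summed level of the neuron list was 4895 to 5291 CPM in Nab2-FLAG and 5368 to 6278 CPM in Atx2-3xFLAG.

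A wider set of 38 ion channels, acetylcholine receptors and dpr/DIP adhesion genes, listed after the values were seen, had 6 genes lower (15.8%, against 2.61% over all genes) and 0 higher in Nab2-FLAG (median log2 -0.25). The late choice of the set fixes this share, which is no test of the set. dpr7, dpr12, nAChRalpha7, the calcium channel subunit stj and the potassium channels SK and eag were the 6, with log2 differences of -0.84, -0.63, -0.79, -0.52, -0.39 and -0.51. Each of these calls was lost without at least 2 of the single libraries, with edgeR adjusted p up to 0.189, and Nab2-FLAG replicate 2 and Atx2-3xFLAG replicate 1 each ended 5 of the 6. DESeq2 called none of the 6 (adjusted p from 0.0501 to 0.167), and with replicate 4 of both genotypes left out 4 genes were lower, eag and nAChRalpha7 being lost. Some other genes of neurons, also chosen after their values were seen, had smaller p-values. homer, a postsynaptic scaffold protein, had 112, 101, 108 and 119 CPM in Nab2-FLAG and 177, 170, 154 and 147 CPM in Atx2-3xFLAG (log2 -0.57 ± 0.12 SE, edgeR adjusted p = 0.00119). pros, the homeodomain factor prospero, had 257 to 310 CPM against 361 to 468 CPM (log2 -0.56, edgeR adjusted p = 0.000211). The groups did not overlap for either gene.

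Photoreceptor genes gave a mixed picture. Of 21 genes, 4 were higher in Nab2-FLAG (19.0%, against 4.19% over all genes) and 0 lower (median log2 0.07). Rh5, the blue-sensitive opsin of a subset of R8 cells, had 141, 150, 149 and 92.8 CPM in Nab2-FLAG and 63.8, 49.1, 55.9 and 45.7 CPM in Atx2-3xFLAG. The groups were separate although Nab2-FLAG replicate 4 was low, and the control had 193 ± 44.5 CPM (SD, n = 4). The log2 difference was 1.31 ± 0.15 (SE), or 2.49-fold (edgeR adjusted p = 2.01e-09). Rh6, the opsin of the other R8 cells, had 577 to 654 CPM against 481 to 506 CPM, a log2 of 0.33 (edgeR adjusted p = 0.0238). ninaE, the opsin of the outer photoreceptors, had 26400 to 35700 CPM against 27800 to 35200 CPM and overlapped completely (log2 0.07, edgeR adjusted p = 0.79). Rh3 and Rh4, the R7 opsins, had log2 differences of 0.25 and 0.24 and were not called. ninaA, a chaperone of opsin, and inaC, the eye protein kinase C, were higher by 0.76 and 0.34. Each of these 3 smaller calls was lost on leaving out certain single libraries. Rh6 was lost without Nab2-FLAG replicate 2 or 3 or Atx2-3xFLAG replicate 1 or 3 (edgeR adjusted p between 0.055 and 0.115), and ninaA without Nab2-FLAG replicate 1 or Atx2-3xFLAG replicate 3 (0.0643 and 0.0766). inaC was lost without Nab2-FLAG replicate 2, 3 or 4 or Atx2-3xFLAG replicate 1, 2 or 4 (0.0647 to 0.188). Without replicate 4 of both genotypes the list held 5 higher genes, with Rh4 and Arr1 added and inaC lost, and 5 lower genes, inaD, ninaC, rdgA, rdgC and eys. The lens protein gene Crys had 322, 402, 439 and 497 CPM in Nab2-FLAG and 160, 193, 176 and 150 CPM in Atx2-3xFLAG (log2 1.29 ± 0.12 SE, edgeR adjusted p = 1.64e-12), and the control, at 32.3 to 85.5 CPM, lay below both.

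Of the circadian clock list, 4 of 17 genes were higher in Nab2-FLAG (23.5%, against 4.19% over all genes) and 0 lower (median log2 0.11). vri, a rhythmic repressor of Clk, had 121, 135, 126 and 68.3 CPM in Nab2-FLAG and 46.8, 38, 53.3 and 67.4 CPM in Atx2-3xFLAG. The replicates 4 were nearly equal and the other libraries were well apart (log2 1.16 ± 0.17 SE, edgeR adjusted p = 1.07e-05). Usp8, a deubiquitinase that acts on CLOCK, had 78.8 to 105 CPM against 32.3 to 49.7 CPM (log2 1.09, edgeR adjusted p = 1.17e-06). per, the period gene, had 43.6, 48.7, 45.9 and 38.5 CPM against 28.9, 9.51, 19.5 and 34.3 CPM (log2 0.89 ± 0.22 SE, edgeR adjusted p = 0.00654). Next to per and overlapping its end, CG2650 moved the other way, with 26.2, 31.5, 32.2 and 47.3 CPM against 99.5, 139, 124 and 71.9 CPM (log2 -1.70 ± 0.19 SE, edgeR adjusted p = 1.95e-08). Because the spans overlap, reads near that end cannot be assigned with certainty. cry, the blue light receptor, was higher by a log2 of 0.53 (edgeR adjusted p = 0.0136), which was lost without Nab2-FLAG replicate 2 or 3 or Atx2-3xFLAG replicate 3 or 4 (0.0618 to 0.106). The other clock genes tim, Clk, cwo and Pdp1 had log2 differences of 0.29, -0.24, 0.13 and -0.24 and were not called. The count of higher clock genes was 6 without replicate 4 of both genotypes, with tim and kay added. The time of day of collection is not given in the sources used here.

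Of 17 tested genes of the cuticle protein list, 5 were lower and 1 was higher in Nab2-FLAG (median log2 -0.27). This is a share of 35.3% against 6.80% over all genes. The list also holds Cpn (calphotin), which is not a cuticle protein gene and was not called (log2 -0.26). Cpr100A had 181, 176, 187 and 236 CPM in Nab2-FLAG and 314, 377, 370 and 417 CPM in Atx2-3xFLAG (log2 -0.93 ± 0.11 SE, edgeR adjusted p = 8.3e-09). The control, at 7.46 to 84.1 CPM, lay far below both, and with all 12 Input libraries in the fit the adjusted p was 0.215. Cpr72Ec had 66, 70.3, 69.4 and 68.3 CPM against 185, 174, 191 and 93.6 CPM (log2 -1.24 ± 0.17 SE, edgeR adjusted p = 7.7e-06), here with the control highest at 237 to 389 CPM. Cpr49Ag, Cpr76Bd and Cpr92F were lower by a log2 of -1.03, -0.84 and -0.83, and Cpr49Ae was higher by 0.75. Tsp42Ej, a tetraspanin, had 145, 162, 152 and 128 CPM against 322, 341, 311 and 224 CPM (log2 -1.01 ± 0.12 SE, edgeR adjusted p = 4.53e-09).

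Detoxification genes went in both directions. Of 38 cytochrome P450 genes, 4 were higher and 3 lower (18.4%, against 6.80% over all genes). Of 16 glutathione S-transferase genes 2 were higher (12.5%) and 0 lower, while 0 of 3 UDP-glycosyltransferase genes were called. Cyp6t1 had 16.5, 28.8, 32.2 and 17.5 CPM in Nab2-FLAG and 6.81, 6.34, 5.33 and 11.4 CPM in Atx2-3xFLAG (log2 1.69, edgeR adjusted p = 0.000248). Cyp4p1 had 7.76, 14.4, 21.1 and 5.25 CPM against 40.8, 42.8, 47.9 and 57.1 CPM (log2 -1.91, edgeR adjusted p = 2.04e-07), and it shares its span with hig. Cyp313a1 was higher by 0.80 and Cyp6g1, which is known for its part in DDT resistance, was lower by a log2 of -0.84. GstE1 had 54.3, 46, 49.6 and 47.3 CPM against 20.4, 14.3, 23.1 and 11.4 CPM (log2 1.45 ± 0.22 SE, edgeR adjusted p = 2.43e-06), and GstE12 was higher by 0.51. The groups of Cyp6t1, Cyp4p1 and GstE1 did not overlap. Among P450 genes, 5 were higher and 5 lower without replicate 4 of both genotypes. Odorant-binding protein genes had 3 of 12 higher (25.0%, against 4.19% over all genes) and 0 lower. Obp19c and its neighbour Obp19d were higher by a log2 of 1.77 and 0.44, and Obp99a by 0.80. The Obp19c difference rests on 11.6 to 12.4 CPM against 1.14 to 4.76 CPM. Obp99a was lost without any of 6 single libraries, all but Nab2-FLAG replicate 2 and Atx2-3xFLAG replicate 4 (edgeR adjusted p between 0.0737 and 0.198). None of 185 chemoreceptor genes passed the expression filter.

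Ribosomal protein genes had small positive differences. Of 82 tested, 77 had a positive difference (median log2 0.19, highest 0.45), and 19 were called higher (23.2%, against 4.19% over all genes) and 0 lower. RpLP1 had 1530, 1590, 1670 and 1210 CPM in Nab2-FLAG and 1090, 1130, 1090 and 1100 CPM in Atx2-3xFLAG, without overlap (log2 0.45 ± 0.10 SE, edgeR adjusted p = 0.00135). The count depended on scaling and on replicate 4: with library size as the only scaling 2 of the 82 genes were called (median log2 0.11), and without replicate 4 of both genotypes 40 were (median 0.26). RpS12 had 443 to 586 CPM against 325 to 411 CPM (log2 0.43, edgeR adjusted p = 0.00497, and 0.0606 without Nab2-FLAG replicate 3). The control mean was nearer to Nab2-FLAG than to Atx2-3xFLAG in 77 of the 82 genes. Summed over the 82 genes, however, the control libraries lay above both genotypes, at 71950 to 93320 CPM. Nab2-FLAG had 50930 to 62500 CPM and Atx2-3xFLAG 46360 to 50850 CPM. Mitochondrial ribosomal protein genes, 8 tested, and the 10 tested genes encoded by the mitochondrial genome had 0 calls, as did 29 proteasome genes.

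Glycolysis genes, listed after the values were seen, had 6 of 11 higher (54.5%, against 4.19% over all genes) and 0 lower (median log2 0.40). The late choice of the list fixes this share, which is no test of the list. Eno, enolase, had 747, 739, 801 and 663 CPM in Nab2-FLAG and 544, 623, 535 and 424 CPM in Atx2-3xFLAG (log2 0.48 ± 0.10 SE, edgeR adjusted p = 0.00119). Gapdh2, a glyceraldehyde phosphate dehydrogenase, had 523 to 625 CPM against 373 to 445 CPM (log2 0.46, edgeR adjusted p = 0.00121), and its paralog Gapdh1 was higher by 0.49. Pfk, Tpi and Pgk were higher by 0.41, 0.40 and 0.46, and each of these 3 calls was lost with library size as the only scaling (edgeR adjusted p = 0.192, 0.147 and 0.154). Without replicate 4 of both genotypes 4 genes were higher, with Pfk and Pgk lost. Leaving out single libraries ended the Pfk call for Nab2-FLAG replicate 1 or 3 and Atx2-3xFLAG replicate 1, 2 or 4, the Tpi call for Nab2-FLAG replicate 2 or 3 and Atx2-3xFLAG replicate 3, and the Pgk call for Nab2-FLAG replicate 3 or 4 and Atx2-3xFLAG replicate 1 or 4 (edgeR adjusted p between 0.0653 and 0.154).

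Of 42 tested genes of mRNA control, among which the partners of both proteins fall, the 2 calls were the genes of the transgenes, Nab2 and Atx2. This share of 4.76% was near the 6.80% over all genes, and the median log2 was -0.10. In the lists that follow, the share called is also to be read against 6.80%. Among 15 genes of the glia list (20.0% called), Gs2 (glutamine synthetase) and vkg were higher by 0.48 and 0.53 and ebony (e) was lower by a log2 of -0.45. The call of vkg, a collagen IV gene, was also counted above in the hemocyte and basement membrane list. Muscle had Act79B and Mhc higher by 0.85 and 0.31 of 20 (10.0%), gut had Npc2g higher by 1.06 of 5 (20.0%), and the vacuolar proton pump had Vha100-1 higher by 0.48 of 17 (5.88%). Hsp26 and Thor were the 2 calls of 18 stress genes (0.47 and 0.44, 11.1%), Pu and kar those of 19 eye pigment genes (0.48 and 0.44, 10.5%), and Nplp2 that of 8 neuropeptide genes (0.64, 12.5%). Among 20 genes of insulin, adipokinetic hormone and sugar response (15.0% called), Pepck2 and Thor were higher and InR, the insulin receptor, was lower by a log2 of -0.51. Of 8 genes of sex and X dosage, 4 were called: the 3 yolk protein genes were higher and fru was lower by -0.53. The snRNA snRNA:U2:34ABa, one of several near-identical copies, was the only call of 14 snRNA and scaRNA genes (-0.67, 7.14%). There were 0 calls among 33 snoRNA, 13 long noncoding and antisense and 4 histone genes, and among 4 genes of a turandot, lysozyme and Osiris list. Those 4 were TotA, TotC, Osi2 and LysRS. LysRS is a lysyl-tRNA synthetase, so no lysozyme gene was tested. The calls of e, Mhc, Act79B, Hsp26, Thor, kar, InR and fru were each lost without at least 3 of the single libraries, with edgeR adjusted p up to 0.191, and Nplp2 was lost without replicate 4 of both genotypes (0.135). The eye colour gene w, which often marks fly transgenes, had 28 to 72.7 CPM in Nab2-FLAG and 21.7 to 56.1 CPM in Atx2-3xFLAG and was not called (edgeR adjusted p = 0.535).

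The RIP libraries of the same 8 lysates gave a second measurement of the genotype difference, sequenced in a pool of their own. They share lysates with the Input and are not independent heads, and in RIP a difference in transcript level and a difference in binding to the tagged proteins cannot be told apart. In RIP, 337 of the 5207 genes (6.47%) differed, 195 higher (3.74%) and 142 lower (2.73%) in Nab2-FLAG (edgeR quasi-likelihood, adjusted p under 0.05). Of the 354 genes called in Input, 346 had the same sign in RIP, against 67.0% of the genes not called in Input. Both pools called 186 genes, which is 52.5% of the Input calls and 55.2% of the RIP calls, and 0 of them in opposite directions. The genes higher in Input had a median RIP log2 difference of 0.43 and the lower genes one of -0.40. Dro was higher in RIP by a log2 of 3.12, Arc1 by 2.74, Pepck2 by 3.04 and Rh5 by 1.56, and CG30054 was lower by a log2 of -3.09, FASN2 by -2.25 and Dhc98D by -2.71. The 8 genes of opposite sign were CG12171, CG2846, HisRS, CG9572, ninaA, Thor, Cul3 and dpr7, all within 0.11 of zero in RIP. Of the diptericins, DptA passed in RIP (log2 1.78, edgeR adjusted p = 0.0274) and DptB did not (1.25, edgeR adjusted p = 0.128).

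**Figure D4:**
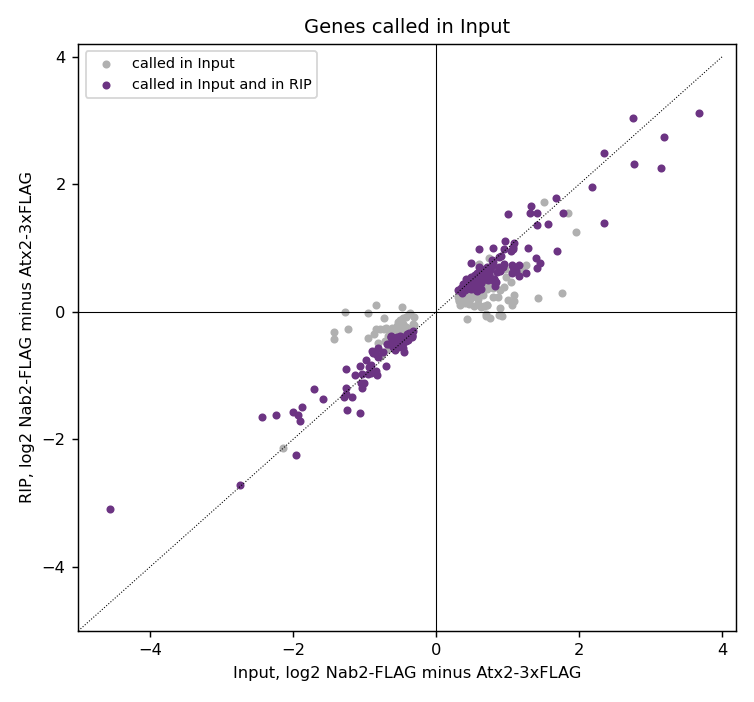
Log2 difference of Nab2-FLAG minus Atx2-3xFLAG in RIP (vertical axis) against that in Input (horizontal axis) for the 354 genes called in Input; the dotted line marks equal differences. Purple points are the 186 genes also called in RIP, grey points the others, and 346 of the 354 lie in the quadrants of equal sign.

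The control heads, which did not enter the test, show on which side each gene lay. Of the 218 genes higher in Nab2-FLAG, the control mean on the log2 CPM scale was nearer to Nab2-FLAG in 127 and nearer to Atx2-3xFLAG in 91. Of the 136 lower genes it was nearer to Nab2-FLAG in 99 and nearer to Atx2-3xFLAG in 37. The control was thus nearer to Atx2-3xFLAG in 36.2% of called genes and in 45.2% of all tested genes. Arc1, Dro and AttA were genes in which the control lay near Atx2-3xFLAG, while Iml1 (122 to 154 CPM in the control), Hml (360 to 412 CPM), CG30054, Dhc98D, FASN2 and Nmdmc were genes in which it lay near or beyond Nab2-FLAG. The control mean fell outside the range spanned by both means in 112 of the higher and 76 of the lower genes, as for Crys and Cpr100A.

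Called genes were spread over the genome. The share called was 6.0% of 933 tested genes on X, 8.27% of 919 on 2L, 7.11% of 1055 on 2R, 7.05% of 965 on 3L, 5.85% of 1230 on 3R and 5.8% of 69 on chromosome 4. Runs of adjacent genes called in the same direction were short, with at most 3 genes. Besides the attacin and diptericin runs, CG9497, CG9498 and CG9505 on 2L (6346430 to 6370190) were higher together, as were Yp1 and Yp2 on X (10050951 to 10055498) and Idgf2 and Idgf3 on 2L.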

How the data were processed

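Raw counts per gene, 1 table per library, were deposited by the authors. They were made with STAR 2.6.0b-1 and featureCounts 1.6.3 on BDGP6, per the submitters' processing notes; annotation and strand setting are not given in the sources used here, although the kit marks strand, so overlapping, antisense and near-identical genes are uncertain. Named genes not marked above whose span overlaps another gene include FASN2 (snRNA:LU and snRNA:U5:23D), hll (CG18095) and CG10383 (CG10336). Others are ninaA (CG15824), DptB (CG43109), Rgk2 (lncRNA:CR46271), Cyp6t1 (lncRNA:CR45082), Tsp42Ej (Tsp42Ek) and futsch (Gr2a). Libraries were depleted of ribosomal RNA, and Input and RIP libraries were pooled apart, per the labels' protocols. The tables hold 17753 genes, of which 10975 had a count in the 8 Input libraries and 5207 passed filterByExpr on both groups, with 98.0% to 98.5% of the counts. Every count belonged to a named gene. FlyBase identifiers matched for 17670 symbols, and coordinates are those of RefSeq's Release 6 table.

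Counts were scaled by TMM over the 12 Input libraries and tested on the 8 with edgeR 4.0.16 in R 4.3.3 (robust glmQLFit, glmQLFTest, two-sided, no block). P-values were adjusted by Benjamini-Hochberg and called under 0.05. RIP was tested likewise on the same genes. The biological coefficient of variation was 0.114 in Input and 0.0952 in RIP. On simulated counts of this comparison with 200 of the genes changed, the test called 28 of 28 genes at a log2 of -2, 28 of 32 at -1, 9 of 29 at -0.5, 11 of 31 at 0.5, 31 of 33 at 1 and 33 of 33 at 2, and 5 of 4992 unchanged genes. The simulated counts had the same dispersion for every gene and no replicate that stood apart, unlike the data. Their recovery and their false calls may therefore be too favourable for these libraries. The alternatives were other scalings, DESeq2 1.42.0, filters, a fold threshold, the replicate block, all 12 libraries in the fit, no mitochondrially encoded genes and leaving out each library. Leaving out replicate 4 of both genotypes was added after seeing the data.

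Named genes were Nab2, Atx2 and elav, the 12 largest differences in each direction among called genes without overlap and with a mean of at least 10 CPM, the 6 smallest p-values in each direction, and up to 4 called members of each of 31 lists. No gene had at most 3 counts in every library of one genotype and at least 10 in every library of the other. A further 4 lists, and the genes marked so, were chosen after their values were seen. The comparison and all lists were chosen with earlier results of these data known. No pair of replicates agreed within sampling noise: chi-square over degrees of freedom was 1.39 to 4.97. The labels call them biological replicates and say nothing of separate cultures or days, so p-values measure the spread between these lysates. There were no molecular identifiers, so the precision set by depth covers counting error only.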

Additional observations from a re-analysis of the deposited data

Results flagged for a closer look

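In 18 of 270 groups of 4 libraries, which were the named genes and the total counts in each genotype, a single library stood apart from the other 3 by Dixon's test, where 13.5 are expected at 1 in 20. Nab2-FLAG replicate 4 was the low library for Rh5 (92.8 CPM, others 141 to 150), Yp3 (15800, others 22400 to 23100), RpL37a (772, others 1200 to 1280), RpL17 (303, others 450 to 478) and NimC1 (29.8, others 35.9 to 36). It was the high library for Pu, GTP cyclohydrolase of pteridine synthesis (975 CPM, others 683 to 731), fit (165, others 80.5 to 91.2) and phu (116, others 57.7 to 65). Nab2-FLAG replicate 3 was the high library for Hml (343 CPM, others 301 to 307) and PPO1 (38.4, others 31.5 to 32.4). Atx2-3xFLAG replicate 4 was the high library for DptA (25.1 CPM, others 4.76 to 7.66) and Mtk (30.8, others 8.88 to 11.1). It was the low library for CG5966 (61.7 CPM, others 132 to 141), Npc2g (29.7, others 63.8 to 65) and pug (299, others 528 to 559). Atx2-3xFLAG replicate 1 was the high library for Thor (131 CPM, others 90.5 to 93.5) and SPARC (126, others 108 to 110), and replicate 2 for Cyp6a2 (25.4, others 12.8 to 14.2). Replicate 4 of either genotype accounts for 13 of the 18.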

How the results depend on the processing

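Of 117 named genes that were called, 35 kept the call under every alternative that gave an adjusted p and 72 under every such alternative but the test against a log2 difference of 0.5; 0 changed sign in any. In Input, library size as the only scaling left 121 higher genes, DESeq2 called 202 (127 higher, 75 lower), and the test against a log2 difference of 0.5 called 45 (28 and 17). Leaving out a library gave 218 to 415 genes, 139 to 249 higher and 79 to 166 lower, with the lowest totals without Nab2-FLAG replicate 2 (230) and 3 (218). Fewer lower genes by over 1.5 times were also called without Nab2-FLAG replicate 1 (87). In RIP, library size only left 119 higher genes, DESeq2 called 196 (113 and 83), and the fold threshold 34 (19 and 15). Leaving out a library gave 190 to 413 genes in RIP, 118 to 239 higher and 70 to 174 lower, with the lowest totals without Nab2-FLAG replicate 1 (190) or 2 (221) or Atx2-3xFLAG replicate 3 (192). The higher RIP genes also fell to 124 without Nab2-FLAG replicate 4, and the lower ones to 92 without Atx2-3xFLAG replicate 2. Except where a smaller number of samples or a stricter hypothesis is the construction of the alternative, the cause was not tested. Other scalings, filters and the fit on all 12 libraries stayed within 1.5 times of the counts.

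With the replicate number as a block, Input gave 479 genes (279 higher, 200 lower), 353 of the 354 among them, and RIP 344. Of the named genes that were called, Gart lost its call with the block (adjusted p = 0.175). The deviations of same-numbered Input libraries correlated at 0.282, 0.073, -0.013 and 0.300, not all over 0.1, and 4 of 8 libraries correlated best with their own number, so the samples were not treated as paired. Depth of 511415 to 1091678 counts limits genes with few counts. Genes that reached about 10 counts in fewer libraries than 1 group holds were not tested. A tested gene can hold far fewer in 1 genotype, as CG30054 did in Nab2-FLAG (1 to 4 counts).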

Other observations

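Replicate 4 of the control Input also lay apart in several of the genes above. CG9676 had 243, 228 and 205 CPM in control replicates 1 to 3 and 44.2 CPM in replicate 4, and CG5966 had 73.4, 94.9 and 64.3 CPM and then 13.3 CPM. CG2650 went the other way, with 0, 4.07 and 3.38 CPM in replicates 1 to 3 and 19.2 CPM in replicate 4. The control was not part of the comparison, and whether the replicates numbered 4 shared a day or a batch is not given in the sources used here.

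A few genes marked all 8 libraries off from the control. Cyp6a2, a cytochrome P450, had 102 to 128 CPM in the control, 13.5 to 17.5 CPM in Nab2-FLAG and 12.8 to 25.4 CPM in Atx2-3xFLAG. phu, a predicted alkaline phosphatase, had 270 to 406 CPM in the control, 57.7 to 116 CPM in Nab2-FLAG and 17 to 76.5 CPM in Atx2-3xFLAG. snRNA:U2:34ABa had 0 to 3.38 CPM in the control and 49 to 133 CPM in the 8 libraries. These genes were picked after their values were seen, and no test was run on them against the control.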
